A study of Sus scrofa with 6 samples.

Results

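The receptors through which oestrogen, progesterone and glucocorticoids act were examined in uterine epithelium that had been exposed to blastocysts or to oocytes. All probe sets (groups of short probes read as 1 value) whose symbol in the array annotation was ESR1, ESR2, PGR, PGRMC1, PGRMC2 or NR3C1 were taken, which gave 5 of the 6 genes, out of 6765 that the annotation names by 1 symbol, and 8 of the 23999 probe sets tested. ESR1, ESR2, PGR and PGRMC1 had 1 probe set each and NR3C1 had 4, whereas PGRMC2 carried no probe set under that symbol and was not analysed here. Each of 3 weaned crossbred sows (Landrace x Large White) had received spermatozoa in one oviduct by laparoscopy and diluent without spermatozoa in the other, so that on day 6 one horn held embryos at the blastocyst stage and the other held unfertilized oocytes. The comparison asks whether the embryo alters the horn locally, since both horns share the circulation of 1 animal. Only the side with embryos received spermatozoa, so the presence of embryos and the exposure to spermatozoa cannot be told apart. Epithelial cells were scraped from the part of each horn next to the oviduct, and RNA of each horn was hybridized to its own porcine array, 3 with embryos and 3 with oocytes. Equal replicate numbers in the labels were taken as 1 sow.

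ESR1 and ESR2 (oestrogen receptors alpha and beta), PGR (the progesterone receptor) and NR3C1 (the glucocorticoid receptor) are transcription factors that bind their hormone, move onto DNA and recruit coregulators. In the uterus oestrogen acting through ESR1 raises PGR, and progesterone in turn lowers both receptors, first in the epithelium and later or less in the stroma. PGRMC1 is not of this family. It is a haem-binding protein of internal membranes related to cytochrome b5, named for its link to rapid progesterone responses.

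Signals are given as deposited, on a linear scale in arbitrary units, and they compare the horns at 1 probe set but not the level of 1 gene with another. Differences are in log2 units, taken after arrays were normalized to each other by cyclic loess (a smoothing of the difference between arrays along the signal), with embryos minus oocytes, so that a negative value means lower with embryos. Array medians were 30.6 to 35.8 with embryos and 32.1 to 35.5 with oocytes, and each array had between 25.4% and 29.0% of its signals under 10. The epithelial marker EPCAM had signals of 2014.3 to 2327.8 over the 6 arrays, and stromal and smooth muscle markers were measured as well, so signal of markers of other cell types was present in these scrapings. In such bulk samples fewer cells of a type and less RNA per cell cannot be told apart.

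ESR1 was the only receptor whose horns did not overlap. Its signal was 41.2, 45.4 and 43.9 with embryos in sows 1, 2 and 3, while it was 80.9, 48.7 and 68.3 with oocytes. The 3 horns with embryos lay close together, while those with oocytes were spread, with that of sow 2 near the embryo values. The means were 43.5 ± 2.13 with embryos and 66.0 ± 16.2 with oocytes (SD, n = 3 each). ESR1 was 0.671 times as high with embryos (95% confidence interval 0.464 to 0.971), or -0.58 on the log2 scale with a standard error of 0.23 (unadjusted p = 0.0373 and adjusted p = 1.0 over all probe sets, limma). The ratio of embryos to oocytes was 0.509, 0.932 and 0.643 in the 3 sows. With the sow as a block the unadjusted p was 0.0189 and the adjusted p 0.473.

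The ESR1 difference came mainly from sows 1 and 3. It was -1.0, -0.07 and -0.66 on the log2 scale in sows 1, 2 and 3. The sow averages of ESR1 over both horns lay within 0.20 of each other on the log2 scale, less than the differences between the horns in sows 1 and 3. The SD of the log2 values was 0.13 with embryos and 0.34 with oocytes, a difference in spread that was not tested. Leaving out the horn with oocytes of sow 1 brought the log2 fold change to -0.43 (unadjusted p = 0.132 from limma), and leaving out that of sow 2 brought it to -0.77 (unadjusted p = 0.0121). The unadjusted p from limma was also over 0.05 without the horn with embryos of sow 1 (0.0943) or sow 3 (0.0751) and without the horn with oocytes of sow 3 (0.10).

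ESR2, the second oestrogen receptor, was dim. Its signals were 2.30, 9.40 and 0.700 with embryos and 1.30, 3.50 and 8.90 with oocytes in sows 1, 2 and 3. All 6 lay under 10, the groups overlapped, and the sows went opposite ways, by 0.76, 1.54 and -3.82 on the log2 scale. The log2 fold change of -0.51 had a standard error of 1.14 and an interval from -3.11 to 2.09, so a change of several-fold in either direction lay within it.

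**Figure D1:**
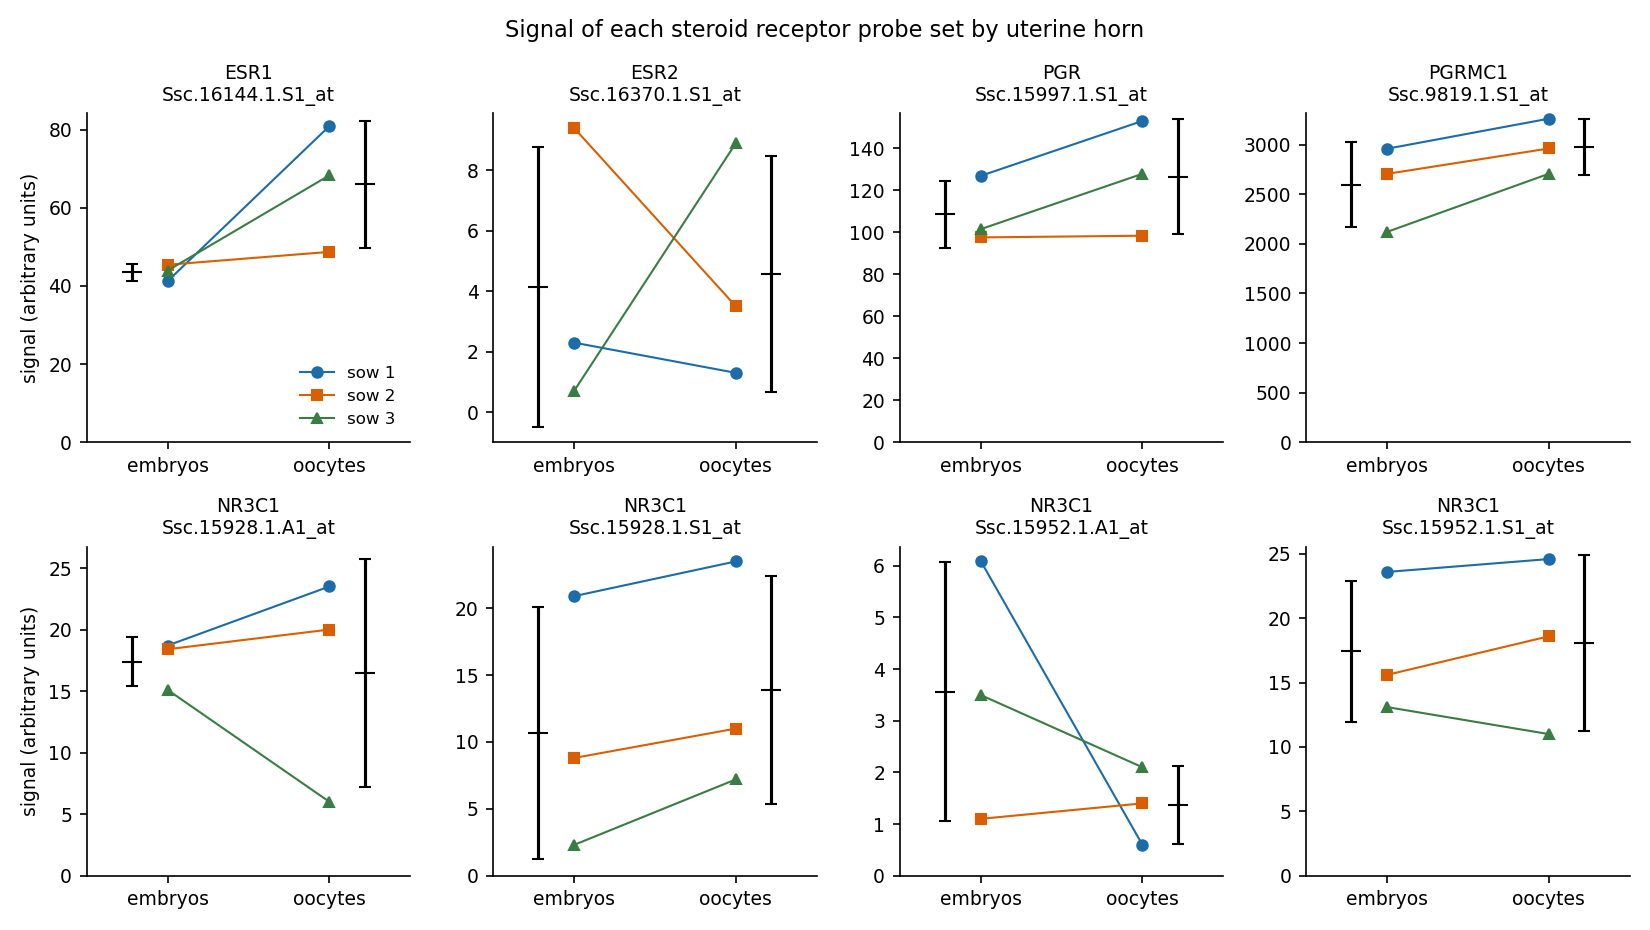
Signal (y axis, arbitrary units, linear) of the 8 receptor probe sets in the horns with embryos (left) and with oocytes (right). Each symbol is 1 sow, lines join her horns and black bars give the mean ± SD of 3 horns, with ESR1 at 41.2 to 45.4 with embryos, below the 48.7 to 80.9 of the horns with oocytes.

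PGR, which carries the progesterone signal that prepares the uterus for attachment, had signals of 126.9, 97.6 and 101.5 with embryos in sows 1, 2 and 3 and 153.1, 98.4 and 127.9 with oocytes. The groups overlapped, and sow 1 was highest in both horns and sow 2 lowest in both. The means were 108.7 ± 15.9 with embryos and 126.5 ± 27.4 with oocytes (SD, n = 3 each). PGR was 0.864 times as high with embryos (95% confidence interval 0.626 to 1.19), or -0.21 on the log2 scale with a standard error of 0.20 (unadjusted p = 0.330, limma). The ratio was 0.829 in sow 1 and 0.794 in sow 3 but 0.992 in sow 2. With the sow as a block the interval was 0.718 to 1.04.

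PGRMC1 was bright, with signals of 2959.9, 2706.3 and 2121.0 with embryos in sows 1, 2 and 3 and 3263.4, 2962.8 and 2707.6 with oocytes. Sow 1 was highest and sow 3 lowest in both horns, and each horn with embryos was lower than its partner, although the groups overlapped. Its means were 2596 ± 430.2 with embryos and 2978 ± 278.2 with oocytes (SD, n = 3 each). The ratio was 0.907, 0.913 and 0.783 in the 3 sows. PGRMC1 was 0.870 times as high with embryos (95% confidence interval 0.690 to 1.10), or -0.20 on the log2 scale with a standard error of 0.15 (unadjusted p = 0.206, limma). The horn difference was of about the size of the spread between animals, as the sow averages had an SD of 0.20. With the sow as a block the standard error was 0.07, the interval 0.779 to 0.972 and the unadjusted p = 0.0185, with an adjusted p of 0.473. Without the horn with embryos of sow 3 the log2 fold change was -0.07 (unadjusted p = 0.613 from limma). That fit had no sow term and kept the horn with oocytes of sow 3, which was lowest in its group. Within sows 1, 2 and 3 the log2 difference was -0.15, -0.13 and -0.32.

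NR3C1 had 4 probe sets, in 2 pairs whose names differ only by the ending A1 or S1. The probe set Ssc.15952.1.S1_at had signals of 23.6, 15.6 and 13.1 with embryos and 24.6, 18.6 and 11 with oocytes in sows 1, 2 and 3. It differed little between the horns, with ratios of 0.959, 0.839 and 1.19, a log2 fold change of -0.04 and an interval from 0.515 to 1.84 for the fold. Ssc.15928.1.S1_at had 20.9, 8.80 and 2.30 with embryos and 23.5, 11 and 7.20 with oocytes. It was lower with embryos in each sow (log2 fold change -0.73, standard error 0.79), mostly by the -1.73 of sow 3, where both signals were under 10.

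The other NR3C1 probe sets were higher with embryos by their means. Ssc.15928.1.A1_at had 18.7, 18.4 and 15.1 with embryos and 23.5, 20.0 and 6.00 with oocytes, so that sows 1 and 2 were lower with embryos and sow 3 higher (log2 fold change 0.28, standard error 0.53). Ssc.15952.1.A1_at stayed under 10 on all 6 arrays, at 6.10, 1.10 and 3.50 with embryos and 0.600, 1.40 and 2.10 with oocytes (log2 fold change 1.20, standard error 0.89). The unadjusted p of the 4 probe sets from limma ran between 0.213 and 0.928, and their signs were split evenly.

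At 2 of the 4 NR3C1 probe sets, Ssc.15928.1.S1_at and Ssc.15952.1.S1_at, sow 1 was highest and sow 3 lowest in both horns, and PGRMC1 showed that order too. Ssc.15928.1.A1_at had it in the deposited signals, but with embryos sow 2 was highest after normalization (3.85, 4.10 and 3.69 on the log2 scale in sows 1, 2 and 3). The sow averages at Ssc.15928.1.S1_at spanned 2.26 on the log2 scale. Over the 6 arrays PGRMC1 correlated with Ssc.15928.1.S1_at at a Pearson r of 0.98, with Ssc.15952.1.S1_at at 0.77, with Ssc.15928.1.A1_at at 0.31 and with Ssc.15952.1.A1_at at -0.50. PGR correlated with ESR1 at 0.67 and with PGRMC1 at 0.66, and ESR1 with PGRMC1 at 0.46. These are descriptions of 6 arrays from 3 sows, which share animals and are not independent.

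**Figure D2:**
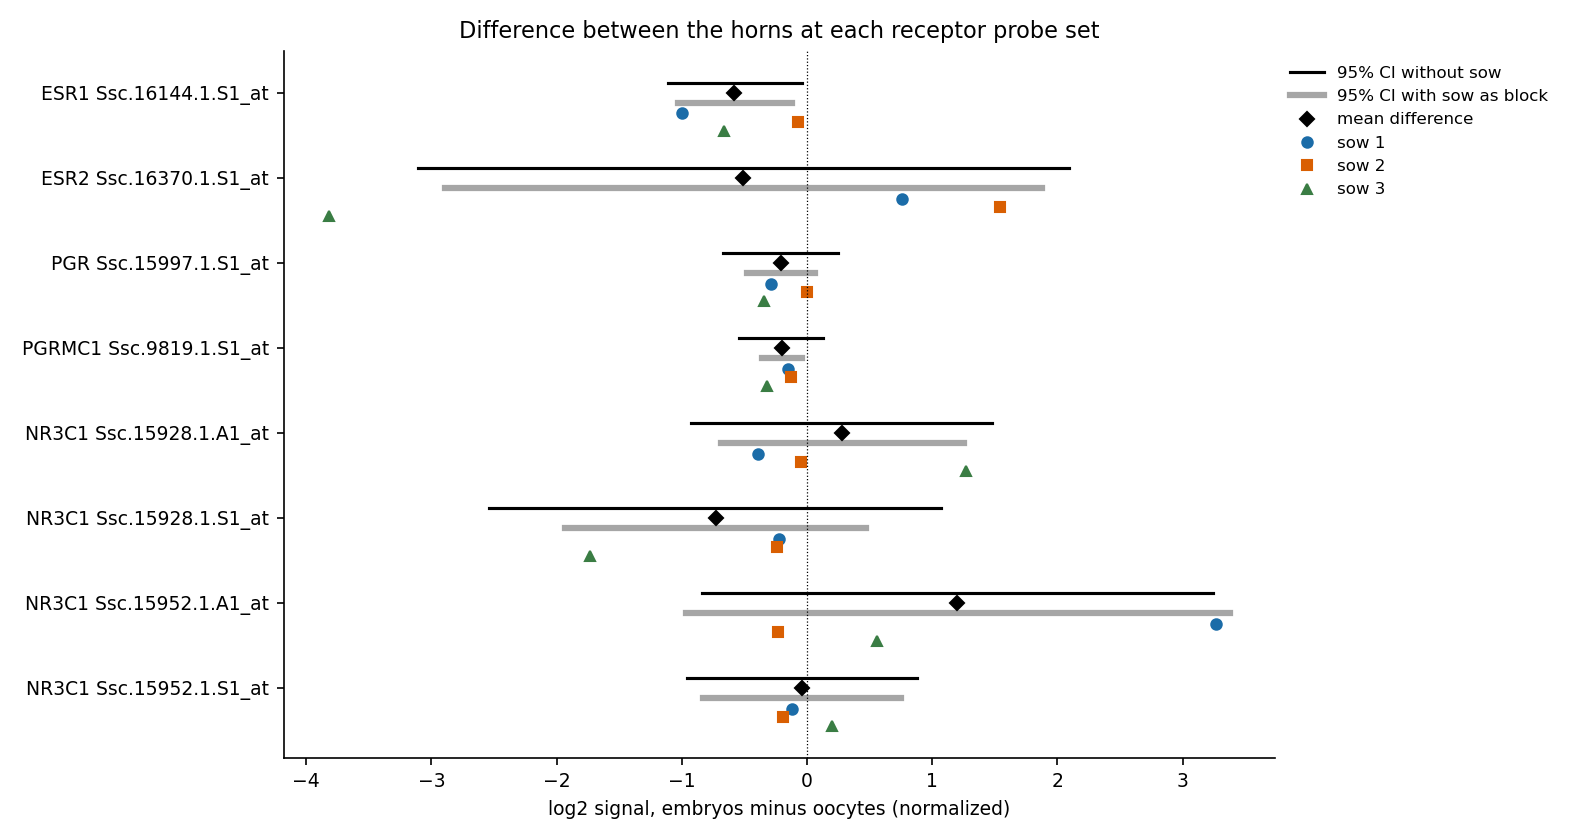
Difference between the horns (x axis, normalized log2 signal, embryos minus oocytes) at each of the 8 receptor probe sets (y axis). Diamonds are means, thin lines the 95% confidence intervals without the sow, thick lines those with the sow as a block and coloured symbols the 3 sows, with only the interval of ESR1 (-1.11 to -0.04) clear of 0 without the sow.

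Over the 8 receptor probe sets 6 were lower and 2 higher with embryos by their means, their log2 fold changes running between -0.73 and 1.20 around a median of -0.21, beside a median of 0.01 and 49.2% lower over all probe sets. With limma 0 of the 8 passed an adjusted p of 0.05, as did 0% of all probe sets, and 1 of the 8 (ESR1) had an unadjusted p under 0.05, where 2.88% of all probe sets did. In the blocked fit the count past the adjusted threshold was 0 too, and 2 of the 8 (ESR1 and PGRMC1) had an unadjusted p under 0.05, both lower, where 8.70% of all probe sets did and 4.95% did so on the lower side. Lower in all 3 sows were 4 of the 8, namely ESR1, PGR, PGRMC1 and Ssc.15928.1.S1_at of NR3C1, where 14.8% of all probe sets were. For PGR in sow 2 that direction rests on a ratio of 0.992. Higher in all 3 sows were 0 of the 8, against 14.9% of all probe sets. Each horn with embryos lay below each horn with oocytes at 1 of the 8, ESR1, against 3.98% of all probe sets. With 4 of the 8 from 1 gene these counts are not over independent members.

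RNA quality and cell make-up were set beside these values. The paper reports that RNA integrity was measured and that samples with degraded ribosomal RNA were not used, but it gives no value for each horn. The signal of the 5' control probe sets of GAPDH and actin over that of their 3' partners (mean log2 ratio), which is lower where RNA is degraded or copied incompletely, was -2.91 ± 0.57 with embryos and -2.41 ± 0.50 with oocytes (SD, n = 3 each). Embryos minus oocytes, it came to -0.55 in sow 1, -0.74 in sow 2 and -0.19 in sow 3, so its difference was widest in sow 2, where ESR1 and PGR differed least. Its order of the sows, 1 over 3 over 2 in both horns, was that of PGR. Over the 6 arrays the log2 signal correlated with this ratio at a Pearson r of 0.86 for PGR, 0.57 for PGRMC1, 0.52 for ESR1 and -0.55 for ESR2. The NR3C1 probe sets lay between -0.16 and 0.45. Over all probe sets the median was -0.03, the upper quartile 0.47, and 8.36% lay above 0.8. These too are descriptions over arrays that share sows. Of 33 marker genes for 7 cell types, 27 were on the array with 38 probe sets, of which 0 were at 0 on any array. An unadjusted p under 0.05 with limma was found at 0 of the 38, where 2.88% of all probe sets had one. With the sow as a block 3 of the 38 had an unadjusted p under 0.05 in limma, where 8.70% of all probe sets did. From that limma fit these were CDH1 of epithelium (lower at 1 of 2 probe sets, log2 fold change -0.47, unadjusted p = 0.0467, the other at 0.06), MYL9 of smooth muscle (0.36, unadjusted p = 0.0493, but -0.06 in sow 1) and ITGB2 of leukocytes (0.45, unadjusted p = 0.0372, higher in each sow). Their lists did not go one way. By their means 5 epithelial probe sets were lower and 3 higher, with 3 and 3 for smooth muscle and 2 and 4 for leukocytes. CD2 of leukocytes lay at -0.87 and TAGLN of smooth muscle at -0.22. With the control ratio the 3 markers correlated at a Pearson r of 0.96 for this CDH1 probe set, 0.53 for MYL9 and -0.95 for ITGB2, and its part in their values was not tested. KDR of endothelium was under 10 throughout. The summed signal of the brightest probe set of each marker gene was 7617 to 10404 with embryos and 7839 to 10140.3 with oocytes for epithelium (6 of 6 genes), and 3220 to 6559 with embryos and 3305 to 7022 with oocytes for stroma (5 of 6). Stroma had ratios of embryos to oocytes of 0.934, 0.974 and 1.04 in sows 1, 2 and 3, smooth muscle (5 of 6) 0.659, 1.26 and 1.18, leukocytes (5 of 6) 0.938, 0.928 and 1.44, and endothelium (4 of 4) 1.13, 0.972 and 1.09. Smooth muscle sums were 653.7 to 1504 with embryos and 519.3 to 2284 with oocytes, those of endothelium 181.4 to 272.3 with embryos and 186.6 to 240.3 with oocytes, and those of leukocytes 104.4 to 149.3 with embryos and 86.7 to 160.9 with oocytes. For ciliated cells TPPP3 (1 of 3) had 65.3 to 101.0 with embryos and 66.1 to 118.2 with oocytes, and for red blood cells HBB (1 of 2) had 213.2 to 288.9 with embryos and 251.3 to 291.8 with oocytes. The sum for smooth muscle was thus lowest relative to its partner in sow 1, where ESR1 was too, but in sow 3 it was at 1.18 and ESR1 at 0.643. Stroma (0.934) was also lowest in sow 1, and epithelium had ratios of 0.972, 0.972 and 1.06 in sows 1, 2 and 3. TPPP3, at 1 probe set, had ratios of 0.823, 0.988 and 0.885, which is the order of the sows that ESR1 had. HBB had 0.990, 1.01 and 0.733. The part of RNA quality and cell make-up in the receptor values was not tested.

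**Figure D3:**
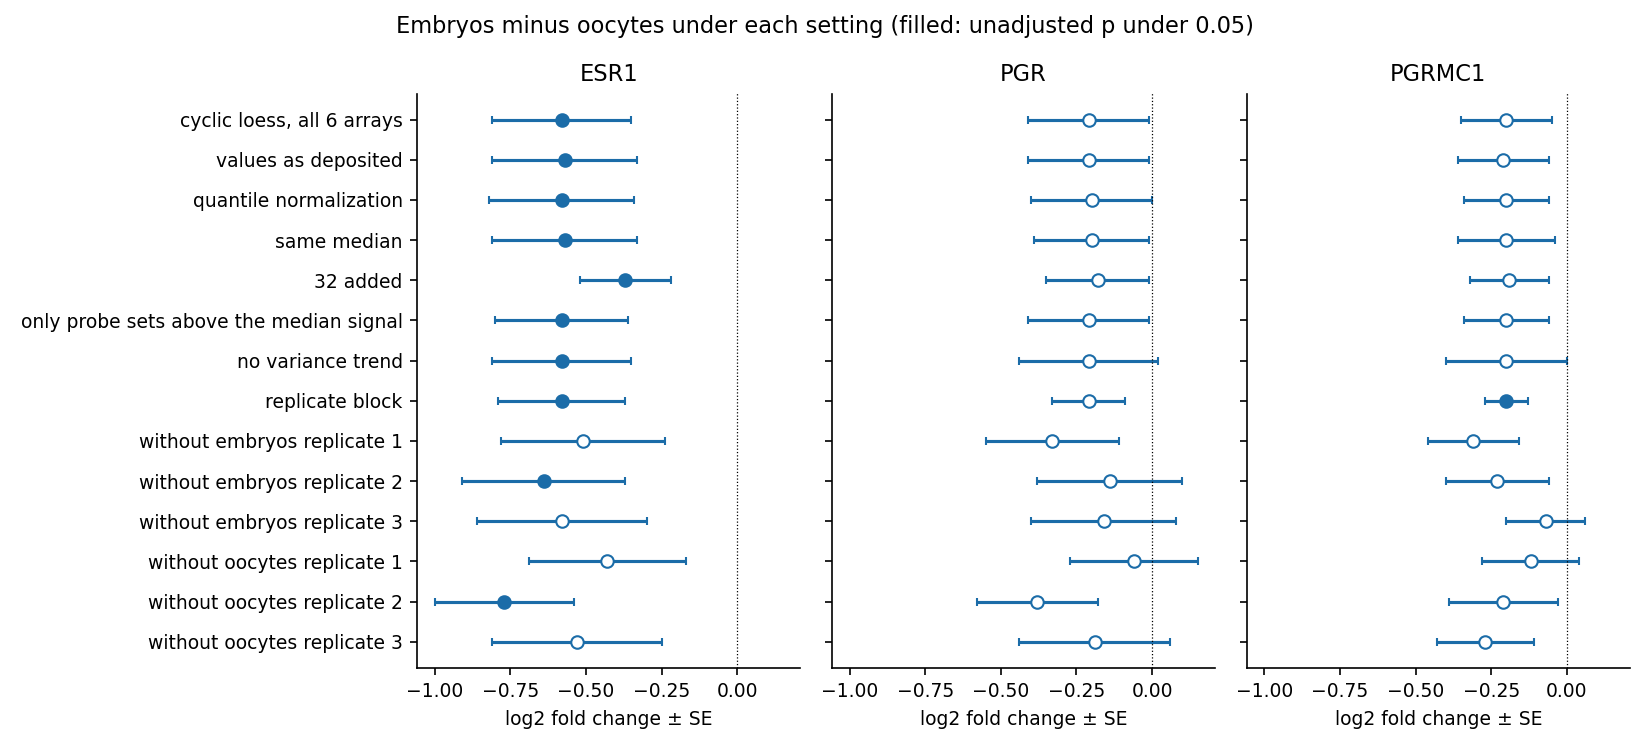
Log2 fold change with its standard error (x axis, embryos minus oocytes) of ESR1, PGR and PGRMC1 under each way of processing (y axis), where filled points have an unadjusted p under 0.05. ESR1 lies between -0.77 and -0.37, PGR between -0.38 and -0.06 and PGRMC1 between -0.31 and -0.07.

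Partners and targets of the receptors were read from 8 lists by role, and 0 probe sets of any list passed an adjusted p of 0.05 with limma, with or without the sow. A gene can stand in more than 1 list, and where it has several probe sets the one with the smallest p was named first. The chaperones that hold the receptors ready for hormone had 15 of 18 genes on the array with 29 probe sets, 19 lower and 10 higher with embryos (median log2 fold change -0.02). Those with an unadjusted p under 0.05 numbered 0 of the 29, where the array had 2.88%, and with the sow as a block 4, all lower, where the array had 4.95% on that side. HSP90AA1, the stress-inducible HSP90, was among these 4 at 1 of its 5 probe sets, with 190.2 ± 91.5 with embryos and 344.2 ± 200.8 with oocytes (SD, n = 3 each), with differences of -1.02, -1.11 and -0.36 in the 3 sows (limma, unadjusted p = 0.0981, and 0.000131 in the blocked fit). Its other 4 probe sets lay between -0.06 and 0.30. The cochaperones STIP1 (-0.18) and DNAJB1 (-0.34) were also lower in each sow, and the constitutive HSPA8 lay between -0.15 and 0.19 at 4 probe sets. The probe set of HSP90AA1 and that of DNAJB1 each correlated with the control ratio of RNA quality at a Pearson r of 0.99 over the 6 arrays, and its part in their values was not tested.

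The coregulators that the receptors recruit had 14 of 29 genes on the array with 29 probe sets, 18 lower and 11 higher (median -0.04). At an unadjusted p under 0.05 1 of the 29 was lower (2.88% of all probe sets passed in either direction), and with the block 3 were lower (4.95% of all probe sets). That 1 was NCOA2, a p160 coactivator of steroid receptors, with 153.1 ± 10.8 with embryos and 196.3 ± 21.2 with oocytes (-0.36 ± 0.15 standard error on the log2 scale, unadjusted p = 0.0380, limma), while its other probe sets lay at -0.19 and 0.11. The count for the list was 0 without the horn with embryos of sow 3 or the horn with oocytes of sow 1. PNRC2, a small coactivator that also works in mRNA decay, had 119.4 ± 57.2 with embryos and 226.6 ± 121.5 with oocytes. It was lower in each sow at this probe set (-1.04, -0.99 and -0.71), and its adjusted p with the block, 0.0810, was the smallest on the array, shared with 2 other probe sets. The second PNRC2 probe set lay at 0.03, and the first correlated with the control ratio at 0.98, whose part was not tested. MED1 (-1.40, signals under 10) and RBM39 (-0.29 to -0.04 at 3 probe sets) followed, and the RBM39 probe set with the smallest p correlated with the control ratio at 0.78.

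Other nuclear and membrane steroid receptors and orphan receptors had 8 of 17 genes on the array with 16 probe sets, 6 lower and 10 higher (median 0.07). Those with an unadjusted p under 0.05 numbered 2 of the 16, 1 in each direction, and 3 with the block, where 2.88% and 8.70% of all probe sets passed. The 2 became 1 under 8 of 13 other ways of processing, among them without embryos of sow 1 or 3 and without oocytes of sow 2 or 3. NR2F1, an orphan receptor also called COUP-TFI, was higher, with 68.8 ± 10.7 with embryos and 46.9 ± 12.3 with oocytes (0.57 ± 0.24 standard error on the log2 scale, unadjusted p = 0.0438, limma). NR5A1, steroidogenic factor 1 of the gonads and adrenal, gave opposite results at its probe sets, 1 at -1.61 with 6.17 ± 1.42 with embryos and 19.3 ± 7.71 with oocytes, and 1 at 1.25 with 28.1 ± 11 with embryos and 16.5 ± 12.9 with oocytes. NR5A2 was dim, and its 5 probe sets lay between -0.36 and 1.01.

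Enzymes that make or inactivate steroids had 17 of 22 genes on the array with 25 probe sets, 13 lower and 12 higher (median -0.07), of which 1 had an unadjusted p under 0.05, with or without the block, where 2.88% of all probe sets did and 8.70% with the block. This was HSD3B1, which converts pregnenolone to progesterone, with 2.43 ± 1.11 with embryos and 13.4 ± 8.39 with oocytes (-2.41 ± 0.62 standard error on the log2 scale, unadjusted p = 0.00407, limma), with its signals under 10 in all 3 horns with embryos, and the list had 0 where only probe sets above the median signal were kept. The other HSD3B1 probe set lay at 0.35, and the first correlated with the control ratio at a Pearson r of 0.76, whose part was not tested. Aromatase, CYP19A1, lay between -1.52 and 0.68 at 4 probe sets and HSD17B1 at 0.77, with means of 14.0 or less in either group. Partners of PGRMC1 and PGRMC2 had 8 of 12 genes with 11 probe sets, 5 lower and 6 higher (median 0.00) and 0 at an unadjusted p under 0.05 in limma fits with or without the block. SCAP (0.21) and INSIG1 (0.94 at a dim probe set and 0.04 at the other) of the sterol sensor and EGFR (-0.19 and -0.07) had the smallest p. Correlations with the control ratio were -0.72 for SCAP, -0.77 for the dim INSIG1 probe set and 0.79 and -0.28 for those of EGFR.

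Genes known to answer to the hormones did not share one direction. Progesterone-regulated uterine genes had 22 of 32 genes on the array with 35 probe sets, 11 lower and 24 higher (median 0.12), with 0 at an unadjusted p under 0.05 and 3 of the 35 with the block (1 lower, 2 higher), where 2.88% and 8.70% of all probe sets passed. MSX1, a homeobox factor of the receptive uterus, had 604.6 ± 79.5 with embryos and 490.2 ± 30.9 with oocytes (log2 fold change 0.29, unadjusted p = 0.0549 from limma), and a dim probe set at -0.06. SPP1, the adhesion protein osteopontin, had 161.6 ± 126.3 with embryos and 65.2 ± 24.8 with oocytes, with sow 2 at 2.90 and the others at 0.30 and 0.12. Its correlation with the control ratio was -0.71. AREG (1.21) was under 10 in its means, and FKBP5, a cochaperone and a target of both progesterone and glucocorticoids, lay at -0.52 at a probe set that correlated with the control ratio at 0.94 and at 0.10 at the other.

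Oestrogen-regulated genes had 21 of 26 on the array with 35 probe sets, 15 lower and 20 higher (median 0.05), with 2 of the 35 at an unadjusted p under 0.05 and 4 with the block, where 2.88% and 8.70% of all probe sets passed. Higher was the immediate early factor EGR1 at 1 of 3 probe sets (0.73, the others at 0.04 and -0.01). This probe set had 599.1 ± 39.1 with embryos and 367.4 ± 84.4 with oocytes and was higher in each sow (0.49, 0.97 and 0.72). Its unadjusted p from limma was 0.00378, and 2.53e-05 in the blocked fit, where the adjusted p was 0.152. Lower was GATA3 at 1 of 4 (-2.53, with 1.10 ± 0.458 with embryos and 6.17 ± 2.48 with oocytes), whose others lay between -0.25 and 0.83. Complement C3 had 152.0 ± 26.3 with embryos and 108.6 ± 42.7 with oocytes and was higher in each sow (0.13, 0.86 and 0.61, unadjusted p = 0.0849 from limma), and the iron-binding protein LTF lay at 1.17 with means under 20. Glucocorticoid-regulated genes had 18 of 22 on the array with 28 probe sets, 8 lower and 20 higher (median 0.10), with 0 of the 28 at an unadjusted p under 0.05 and 4 with the block (2 lower, 2 higher), where 2.88% and 8.70% of all probe sets passed. TSC22D3, also called GILZ, had 424.6 ± 35.8 with embryos and 341.5 ± 66.7 with oocytes and was higher in each sow (0.23, 0.13 and 0.61, unadjusted p = 0.0695 from limma), with a dim probe set at -0.58. The clock gene PER1 lay at 0.18, also higher in each sow, and at 0.47 at a dim probe set. Glutamine synthetase, GLUL, lay at -1.14, -0.76 and 0.14 at its 3 probe sets. The first was dim, with means of 6.07 with embryos and 14.1 with oocytes. The first and second correlated with the control ratio at a Pearson r of 0.61 and 0.72 over the 6 arrays, and its part was not tested.

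**Figure D4:**
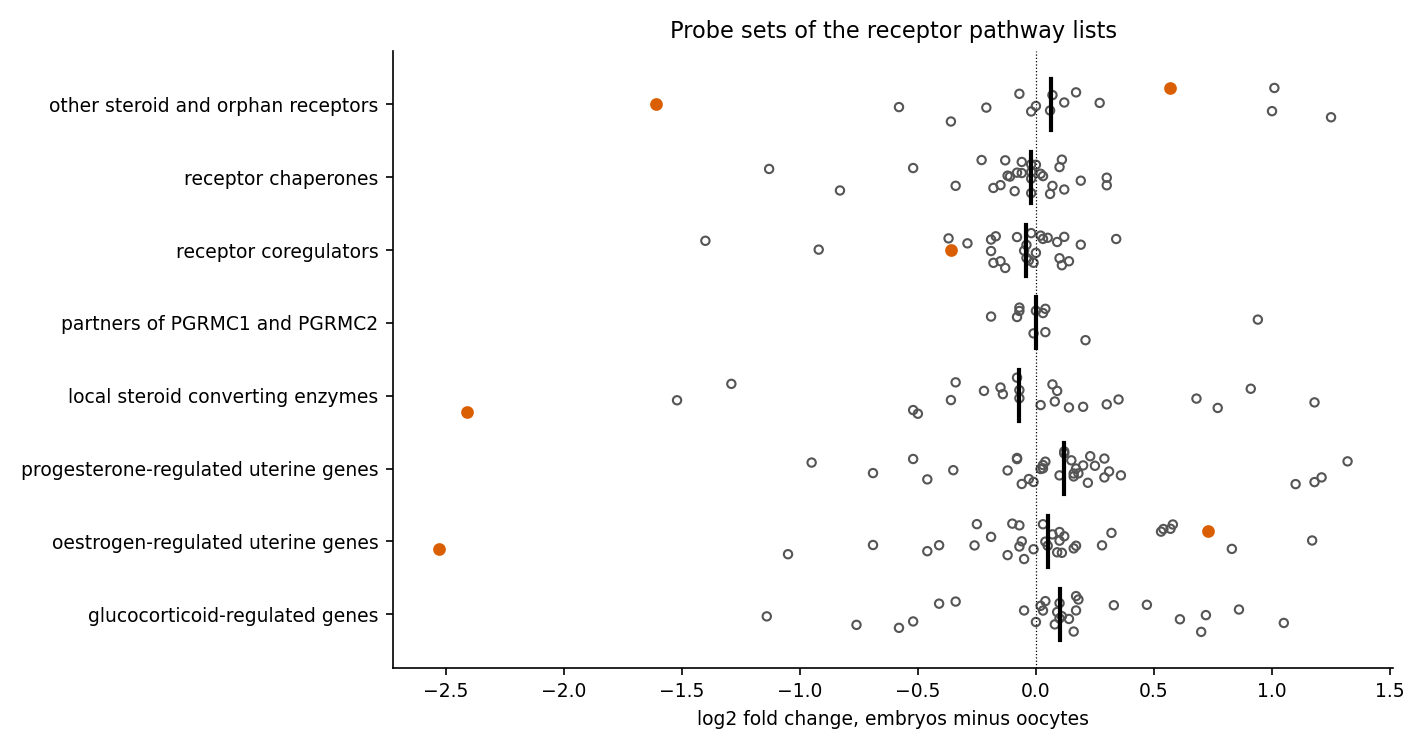
Log2 fold change (x axis, embryos minus oocytes) of each probe set of the 8 lists of receptor partners and targets (y axis). Circles are probe sets, filled ones have an unadjusted p under 0.05 and bars are medians, which lie between -0.07 and 0.12.

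The probe sets of other genes most like each receptor over the 6 arrays were sought among 6101 with 1 symbol and an above-median signal. For ESR1 these were ATP6V1B2, a subunit of the vacuolar proton pump, PLPP1, a lipid phosphatase, and DCP1A of mRNA decapping, with a Pearson r of 0.98, 0.98 and 0.97. For PGR they were GAMT, METAP2 and BTBD9 (0.99 each), and for PGRMC1 the actin-capping subunit CAPZB, DEDD and NIP7 (0.99 each). NR3C1, at Ssc.15952.1.S1_at, was most like GPRC5C, FHL2 and ITIH3 (1.00, 1.00 and 0.99), and ESR2 most like TGFBR1, FAM96B and CCDC28A (0.97 each). As the highest of many values over 6 arrays from 3 sows, such correlations are high by selection. The ESR2 and NR3C1 probe sets themselves lay below the median signal asked of the candidates, with 11.7% and 38.4% of all probe sets dimmer. ESR2 was under 10 on all 6 arrays, so its profile is that of a dim signal.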

How the data were processed

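RNA of 6 uterine horns was measured on Affymetrix porcine arrays. Per the labels, the authors made the deposited intensity values with MAS5 version 5.1, 1 signal per probe set on a linear scale, and each array had the same mean (100.02) without its highest and lowest 2%. These values do not hold the Lowess step that the methods describe. Arrays have no depth of sequencing, and precision is limited by their number.

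A floor of 0.1 was put on the signals, cyclic loess brought the log2 values of the arrays together, and 124 of 24123 probe sets were removed as controls. The other 23999 were fitted with limma 3.58.1 in R 4.3.3 (group only, as the study's model has no sow term, variance trend on), with Benjamini-Hochberg adjustment over all of them at 0.05 and no filter on low signals. The fit was checked on simulated data. Plots used matplotlib 3.10.9 in Python 3.11.15.

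Symbols came from the array annotation (1 symbol for 10069 probe sets, several for 198, none for 13732). The gene identifiers of all 8 receptor probe sets were found in a current gene table (Sscrofa11.1), with 0 symbols changed.

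The replicate number was taken as the sow, since the labels call the replicates biological and the study took both horns from each sow. Deviations from the group means correlated at 0.207, 0.173 and 0.100 within the 3 pairs, and each of the 6 arrays correlated best with the array of its own number. A fit with the number as a block was run beside the one without it.

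The receptors and lists were chosen with earlier results of these data known. Named are all receptor probe sets, the 4 probe sets with the smallest p in each list by role and the 3 most like each receptor. Each result was computed again with the block, without each array in turn, without the variance trend, without dim probe sets (at or under the median signal), with 32 added before taking logs, and with no normalization, medians made equal or quantiles in place of cyclic loess.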

Additional observations from a re-analysis of the deposited data

How the results depend on the processing

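With limma and 13 alternatives the count past an adjusted p of 0.05 was 0, over the whole array or among the receptors. ESR1, PGR and PGRMC1 kept a negative log2 fold change in all 13. The other receptor probe sets fell out where only probe sets above the median signal were kept. The median log2 fold change of the receptors was -0.07 with 32 added, which shrinks dim differences, and -0.32 to 0.13 when 1 array was left out (0.13 without embryos of sow 3, -0.09 without oocytes of sow 1). With the replicate block, 2 of the 8 receptor probe sets had an unadjusted p under 0.05 in place of 1. With 1 array left out it was 0 or 1, and 0 without embryos of sow 1 or 3 or oocytes of sow 1 or 3. When 1 array was left out, the signs of ESR2 and of the NR3C1 probe sets other than Ssc.15952.1.A1_at turned. Ssc.15952.1.A1_at, under 10 on all arrays, stayed between 0.63 and 1.82. ESR2 ran from -1.55 to 0.40, being above 0 without embryos or oocytes of sow 3. NR3C1 ran from -0.34 to 0.18 at Ssc.15952.1.S1_at (above 0 without embryos of sow 3 or oocytes of sow 1 or 2), from -1.39 to 0.12 at Ssc.15928.1.S1_at (above 0 without embryos of sow 3) and from -0.32 to 0.59 at Ssc.15928.1.A1_at (below 0 without oocytes of sow 3). The fits with 1 array left out had no sow term and kept the partner of that array, so differences between sows enter them. Within sows 1, 2 and 3 Ssc.15928.1.S1_at was lower with embryos each time (-0.22, -0.24 and -1.73). How far this moved the signs was not tested. The interval of ESR2 was wide enough to hold changes of several-fold in either direction. Counts of probe sets at an unadjusted p under 0.05 in the lists of partners and targets were small and moved when 1 array was left out, between 1 and 2 for other receptors, 0 and 1 for chaperones, coregulators and progesterone-regulated genes, 2 and 3 for oestrogen-regulated genes and 0 and 2 for glucocorticoid-regulated genes. They stayed at 1 for enzymes and 0 for partners of PGRMC1 and PGRMC2. Among probe sets above the median signal the enzymes had 0, other receptors 1 and oestrogen-regulated genes 1.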
